A study of Mus musculus with 2 samples.

Results

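The genes described here make, sense and remove extracellular adenosine, and they were read in cultures of mouse calvarial osteoblasts after 12 days and after 5 days of differentiation. The list names 10 genes, which are Entpd1, Entpd2 and Entpd4 (hydrolysis of nucleotides), Nt5e (production of adenosine), Adora1, Adora2a and Adora2b (adenosine receptors), Slc29a1 (nucleoside transport), and Ada and Adk (removal of adenosine). Members were found by symbol among all 18193 genes named on the array, and the list was chosen by the signal of Ada, which was lower at day 12, so the contrast of the 2 days chose it and every ratio below is a description. Of the 10 genes, 6 had probe sets of their own (15 in all), Entpd4 had 4 probe sets that the annotation assigns to it together with another gene, and the 3 receptor genes were not analysed here because no probe set was named for them. All 6 genes with their own probe sets were measured, meaning that the brightest probe set lay at or above the floor on at least 1 array. As floor, the 60th percentile of the signals on an array was taken.

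Both groups came from the skull roof bones (calvariae) of newborn mice, from which cells bearing the myeloid surface protein CD11b had been removed, and the labels name no treatment and no genetic change in either. Medium held 50 µg/ml ascorbic acid, which collagen synthesis needs, and 10 mM β-glycerophosphate, a phosphate source for mineral, in both groups. The day 12 group and the day 5 group were 1 culture sample and 1 Affymetrix array each, so no replicate error or p-value can be given for any value, and every difference is between these 2 arrays. The strain, the number of animals and whether they were pooled were not given in the sources used here. The median signal was 19.6 at day 12 and 19.7 at day 5, and the floor lay at 44.8 for the day 12 array and 46.6 for the day 5 array. In whole cultures, fewer cells of a type and less RNA per cell cannot be told apart.

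Cells release ATP, which acts on P2X and P2Y receptors and is broken down at the cell surface. Ectonucleoside triphosphate diphosphohydrolases of the Entpd family remove phosphates from ATP and ADP, and the ecto-5'-nucleotidase CD73, encoded by Nt5e, turns the AMP into adenosine. Adenosine acts on its own receptors, enters cells through equilibrative transporters such as ENT1 (Slc29a1), and is then either deaminated to inosine by adenosine deaminase (Ada) or phosphorylated back to AMP by adenosine kinase (Adk). In bone, these reactions also release phosphate. Pyrophosphate, an inhibitor of mineral, is a substrate of the alkaline phosphatase Alpl, which is not among the members. Mice lacking CD73 have been described with reduced osteoblast function.

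Nt5e and Ada differed in opposite directions at day 12, while no other measured member was counted past 2-fold. For Entpd1, below the floor at day 5, the ratio is only a lower bound. Nt5e, which makes adenosine, was 4.38-fold higher at day 12 and Ada, which deaminates it, was 3.53-fold lower. Among all 10479 measured genes, 3.56% were higher at day 12 by 2-fold or more and 1.73% were lower by that much, 5.29% in either direction. Of the 6 measured members, 1 was higher, 1 was lower and 4 lay between. At a threshold of 1.5-fold or of 3-fold, Nt5e and Ada were again the 2 members past it, where 15% and 2.01% of all measured genes passed (7.25% higher and 7.7% lower at 1.5-fold, 1.67% higher and 0.344% lower at 3-fold). Since the contrast chose the list, nothing is read from these counts. The median log2 ratio was 0.29 over the 6 members and -0.05 over all measured genes.

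The promoters of these 2 genes are shown because they are the members past 2-fold, each as 250 bases before to 50 bases after the transcription start in RefSeq (build GRCm38.p6), read 5′ to 3′ along the gene's own strand. Capitals mark GGGCGG or its reverse complement CCGCCC, the GC box bound by Sp1-type factors.
Ada, chr2:163750190-163750489, minus strand: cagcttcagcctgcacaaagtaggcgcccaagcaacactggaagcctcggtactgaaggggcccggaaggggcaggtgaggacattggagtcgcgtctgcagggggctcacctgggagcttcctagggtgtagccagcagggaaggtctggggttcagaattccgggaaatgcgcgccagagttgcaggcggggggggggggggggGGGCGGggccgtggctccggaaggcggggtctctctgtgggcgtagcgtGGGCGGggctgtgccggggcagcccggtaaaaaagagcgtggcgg
Nt5e, chr9:88327359-88327658, plus strand: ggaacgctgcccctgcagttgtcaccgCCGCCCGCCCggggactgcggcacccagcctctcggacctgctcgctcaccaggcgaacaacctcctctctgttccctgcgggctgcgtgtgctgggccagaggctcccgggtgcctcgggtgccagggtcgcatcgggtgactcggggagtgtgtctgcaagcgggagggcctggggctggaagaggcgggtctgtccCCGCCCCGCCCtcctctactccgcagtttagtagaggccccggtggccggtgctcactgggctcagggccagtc
Both windows are rich in G and C, at 68.0% for Ada and 71.0% for Nt5e. GGGCGG occurred 2 times in the Ada window, on the strand shown, and 4 times in the Nt5e window, all as the complement and some of them overlapping. At least 1 GC box on either strand was present in 35.7% of all 32851 promoter windows of the table. ACGTG (complement CACGT), the core of the hypoxia response element, was in neither window and was in 19.6% of all windows. Of the 8 listed genes with a RefSeq promoter, 7 had a GC box and 3 had ACGTG in at least 1 window. Slc29a1 has 8 annotated starts and Ada, Nt5e, Entpd2 and Adora2b have 1 each. The shares given above are per window and not per gene, so these counts cannot be set against them. These matches describe the letters of the windows and show no binding.

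**Figure D1:**
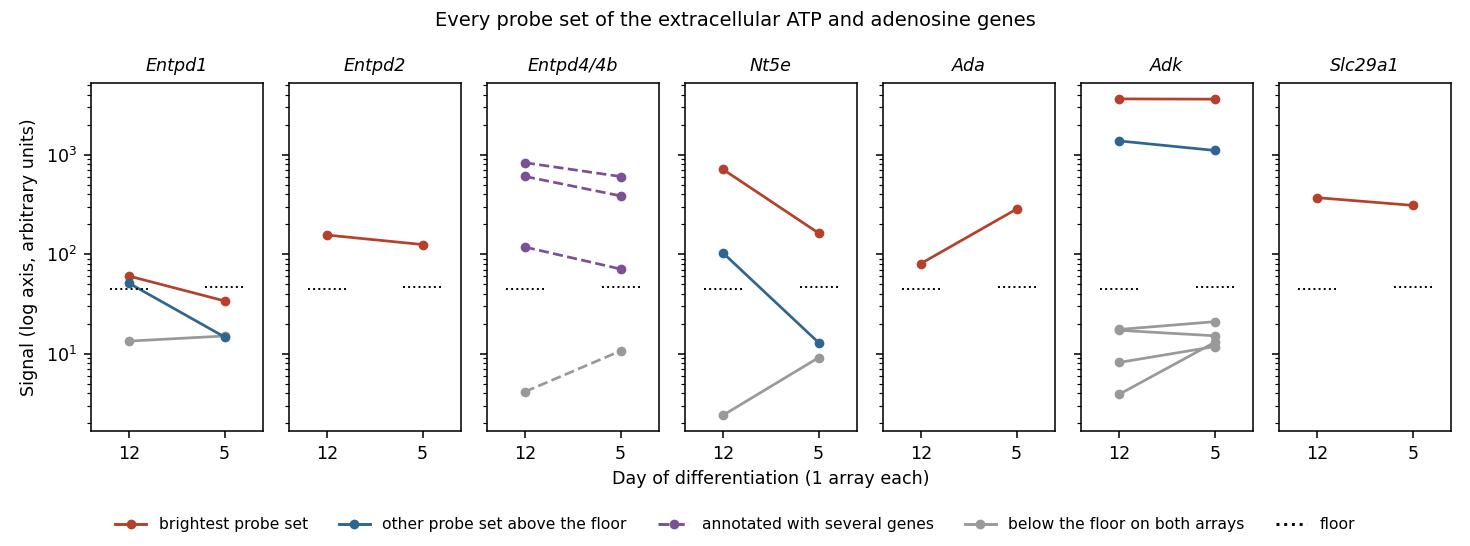
Signal of each probe set of the 7 genes at day 12 and day 5 (log axis, arbitrary units), 1 line per probe set, with the floor of each array dotted. The bright Nt5e line is higher at day 12 (714 at day 12 and 163 at day 5) and the single Ada line is lower (80.8 at day 12 and 285 at day 5), while the bright lines of Adk and Slc29a1 are nearly level.

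No nucleotide hydrolase among the members was counted past 2-fold. Entpd1 encodes CD39, which converts ATP and ADP to AMP and is abundant on macrophages and endothelium. Its brightest probe set had signals of 60.5 (day 12) and 34.0 (day 5), so only the day 12 value lay above the floor and the gene was at least 1.30-fold higher. Its second probe set had signals of 51.3 (day 12) and 14.8 (day 5), or at least 1.10-fold higher, and the last was below the floor on both arrays, at 13.4 on day 12 and 15.1 on day 5. All 3 Entpd1 probe sets were therefore close to or under the floor, where ratios are least certain.

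Entpd2, a surface enzyme that prefers ATP to ADP, had signals of 156 (day 12) and 125 (day 5) in its single probe set (1.25-fold higher, log2 ratio 0.32). Entpd4 encodes an enzyme of inner membranes that acts on UDP and other nucleoside diphosphates. Of its 4 probe sets, 3 are annotated to both Entpd4 and its near-identical copy Entpd4b, so their signal cannot be divided between the genes, and they were left out of the gene counts. The brightest of these read 833 at day 12 and 605 at day 5 (log2 ratio 0.46). The next read 607 at day 12 and 386 at day 5 (0.65), and the last 118 at day 12 and 71.1 at day 5 (0.73). All 3 shared probe sets were higher at day 12, by 1.38-fold to 1.66-fold. The remaining probe set, annotated to Gm16867 and Entpd4, was below the floor on both arrays, with 4.15 at day 12 and 10.7 at day 5.

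Nt5e was higher at day 12 in both of its detected probe sets. Its brightest probe set (1428547_at) had signals of 714 (day 12) and 163 (day 5), a log2 ratio of 2.13. A second probe set (1422974_at) had signals of 103 (day 12) and 12.9 (day 5), which was below the floor, so it was at least 2.22-fold higher. The last (1459023_at) lay below the floor on both arrays, at 2.41 on day 12 and 9.17 on day 5, and gives no ratio. With the median over the 3 probe sets in place of the brightest, the log2 ratio was at least 1.15. That too is a bound, as the median day 5 signal lay below the floor. Among the 500 measured genes closest to Nt5e in mean signal, the central 95% of log2 ratios ran from -0.75 to 1.71, and 6 of them had a ratio at least as high.

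Slc29a1, the transporter ENT1 through which adenosine crosses the membrane in either direction, had signals of 371 (day 12) and 310.1 (day 5), 1.20-fold higher, log2 ratio 0.26. This was inside the central 95% of the 500 genes nearest to it in signal, which ran from -0.75 to 1.78. The 3 adenosine receptors of the list were not analysed here. The remaining receptor, Adora3, lay under both floors, reading 17.4 at day 12 and 17.6 at day 5.

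The enzymes that remove adenosine did not move together. Ada was represented by 1 probe set (1417976_at), reading 80.8 at day 12 and 285 at day 5, a log2 ratio of -1.82. Both values were above the floor, the day 12 value by less than 2-fold. Among all measured genes, 12 had a log2 ratio as low or lower, Ada included, and among the 500 nearest in signal the central 95% ran from -0.91 to 1.24. The list was chosen because Ada was lower at day 12, so this rank and range are a description and no evidence. No second probe set was there to set beside it. The floor at the 75th percentile lies above the day 12 signal of Ada. With it the log2 ratio was at most -0.70, and the gene was no longer counted past 2-fold.

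Adk, the kinase that returns adenosine to AMP, had signals of 3647 (day 12) and 3623 (day 5) in its brightest probe set (log2 ratio 0.01). Its second measured probe set read 1379 at day 12 and 1106 at day 5, a log2 ratio of 0.32. The first is of a type whose probes can share sequence with other transcripts, and without such probe sets the value of Adk is that of the second. The log2 ratio of the first was -0.07 after quantile normalisation and -0.04 after loess, so it has no settled sign. The other 4 Adk probe sets lay under both floors, reading 3.91 to 17.6 at day 12 and 11.8 to 21.0 at day 5.

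The only repeat measurement on these 2 arrays is that of several probe sets for 1 gene. Where a gene had 2 or more measured probe sets (4446 genes), its brightest pair gave log2 ratios that lay a median of 0.17 apart, and less than 0.66 apart in 95% of genes. Probe sets below the floor on 1 array were kept here, so some of the ratios behind this spread are bounds. The brightest pair of Nt5e gave a log2 ratio of 2.13 and a lower bound of 1.15, and Ada, Entpd2 and Slc29a1 have no pair. This spread covers probe error and not the difference between cultures, so the members' ratios are not set against it.

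**Figure D2:**
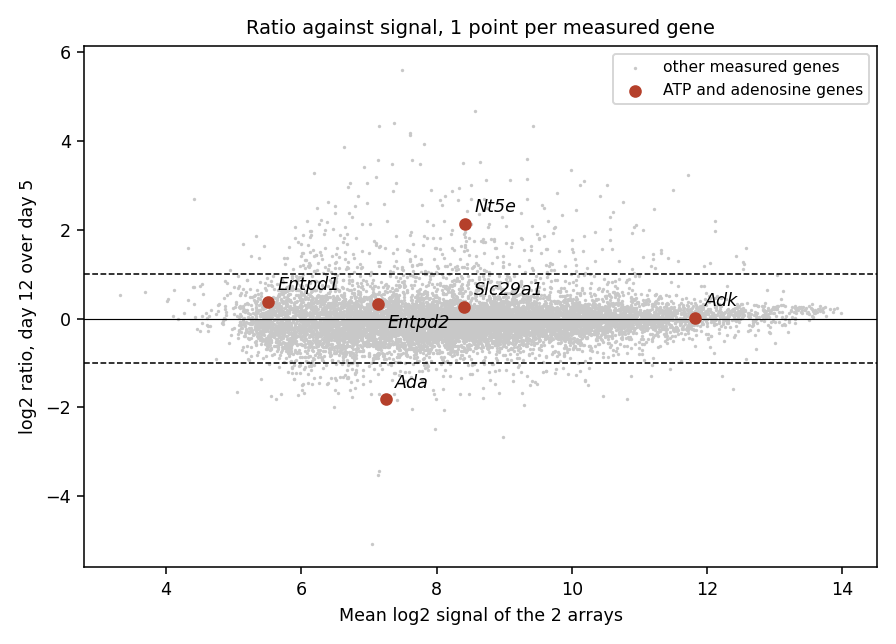
log2 ratio of day 12 over day 5 against mean log2 signal, 1 point per measured gene (grey, 10479 genes), with the 6 measured members in red and dashed lines at 2-fold. Nt5e (2.13) lies above the upper line and Ada (-1.82) below the lower line, with the other 4 members between them.

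By the distance between the log2 signals on the 2 arrays, the 5 genes most like Ada were Rhou, Igf2bp3, Otor, Acta1 and Epb41l4a. Their signals were between 72.8 and 100.2 at day 12 and between 235 and 320.3 at day 5. With 1 array per day, this likeness rests on 2 values per gene.

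The wider purinergic pathway was described from 6 lists with 65 genes besides the members, of which 56 had a probe set and 36 were measured. Among the 36, 5 were at least 2-fold higher at day 12, 2 were at least 2-fold lower and 29 lay between, with a median log2 ratio of 0.05. Over all measured genes, 3.56% and 1.73% passed 2-fold in these directions. These lists were drawn up with earlier results of these data known, so nothing is read from the difference between the shares. The 5 higher genes were Panx3, P2ry6, Entpd3, Alpl and Ak4, and the 2 lower ones were Panx1 and Ak5.

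In the list of other ectonucleotidases, 2 of 8 measured genes were at least 2-fold higher, none was 2-fold lower and the median log2 ratio was 0.08. Alpl, the alkaline phosphatase of mineralising cells, which can take AMP as well as pyrophosphate as a substrate, had signals of 3355 (day 12) and 684 (day 5). Entpd3, a surface enzyme of the same family as Entpd1, had signals of 294 (day 12) and 99.4 (day 5), 2.96-fold higher. With the 75th percentile floor, which lies above its day 5 signal, its log2 ratio was at least 0.69. Each of these enzymes acts outside the cell, upstream of adenosine. Entpd6, an intracellular and secreted diphosphatase, had signals of 49.3 (day 12) and 89.5 (day 5), log2 ratio -0.86, and Enpp4 had 74.8 at day 12 and 44.5, under the floor, at day 5 (at least 0.68). Entpd5, Entpd7 and Cant1 had log2 ratios between -0.34 and 0.15, and Enpp3, under the floor at day 12, had at most -0.07.

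Among genes tied to the release of ATP, the pannexins Panx3 and Panx1 differed past 2-fold. Panx3, a pannexin of osteoblasts and chondrocytes, had signals of 3549 (day 12) and 524 (day 5), but a log2 ratio of 0.28 was found in its other measured probe set. The brighter one is of the type that can share sequence with other transcripts, and Panx3 was not past 2-fold without such probe sets or with the median over probe sets (0.28 in both). Panx1, the widely expressed pannexin, had signals of 63.9 (day 12) and 162 (day 5), 2.54-fold lower, log2 ratio -1.35. Of the 5 measured genes in this list, 1 was higher and 1 lower by at least 2-fold. The other 3 were Vdac1 (log2 ratio 0.45), the connexin gene Gja1 (-0.06) and Ank, an exporter of pyrophosphate and citrate linked to ATP release (-0.09).

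Most receptors for extracellular nucleotides lay below the floor. Of 7 P2X genes 3 were measured and none passed 2-fold. P2rx4 had signals of 464 (day 12) and 436 (day 5), and P2rx7, whose product opens at high ATP, had 57.4 at day 12 and 47.2 at day 5, near the floor. P2rx5 read 30.1 at day 12, below the floor, and 78.5 at day 5 (log2 ratio at most -0.81). It was past 2-fold lower with the 50th percentile floor (-1.38) and with a pseudocount (-1.04). Of 7 P2Y genes only P2ry6, the UDP receptor, was measured, reading 117 at day 12 and 58.4 at day 5 (2.01-fold higher, or a log2 ratio of 0.84 after adding a pseudocount).

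Inside the cell, 2 adenylate kinase genes, whose products exchange phosphate between adenine nucleotides, differed by over 2-fold and in opposite directions. Of 17 measured genes in this list, 1 was at least 2-fold higher, 1 at least 2-fold lower and the median log2 ratio was 0.03. Ak4, a mitochondrial adenylate kinase, had signals of 1127 (day 12) and 99.8 (day 5), and its other measured probe sets gave log2 ratios of 0.76 and 3.36. With the median over probe sets it had 0.76 and was not counted past 2-fold. Ak5, a cytosolic adenylate kinase best known from brain, had signals of 146 (day 12) and 330 (day 5), 2.26-fold lower, with -0.95 in a second probe set. It was at most -0.91 when the floor was at the 75th percentile, above its day 12 signal.

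Pnp, the purine nucleoside phosphorylase that acts on the inosine made by Ada, had signals of 1180 (day 12) and 2088 (day 5), a log2 ratio of -0.82. Xdh, the xanthine oxidoreductase at the end of the route, had 44.6 at day 12, just under the floor, and 68.3 at day 5 (at most -0.61). Gda, a guanine deaminase, had 40.3 at day 12, also under the floor, and 74.8 at day 5 (at most -0.74). Each of these lay below its day 5 signal, and none was past 2-fold. The salvage genes Hprt, Aprt and Dck had log2 ratios of 0.44, 0.19 and 0.22, and Ahcy, which forms adenosine from S-adenosylhomocysteine, had -0.08. Among the nucleoside transporters, Slc29a3, of lysosomal membranes, had -0.41, and Slc29a4 at least 0.11.

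**Figure D3:**
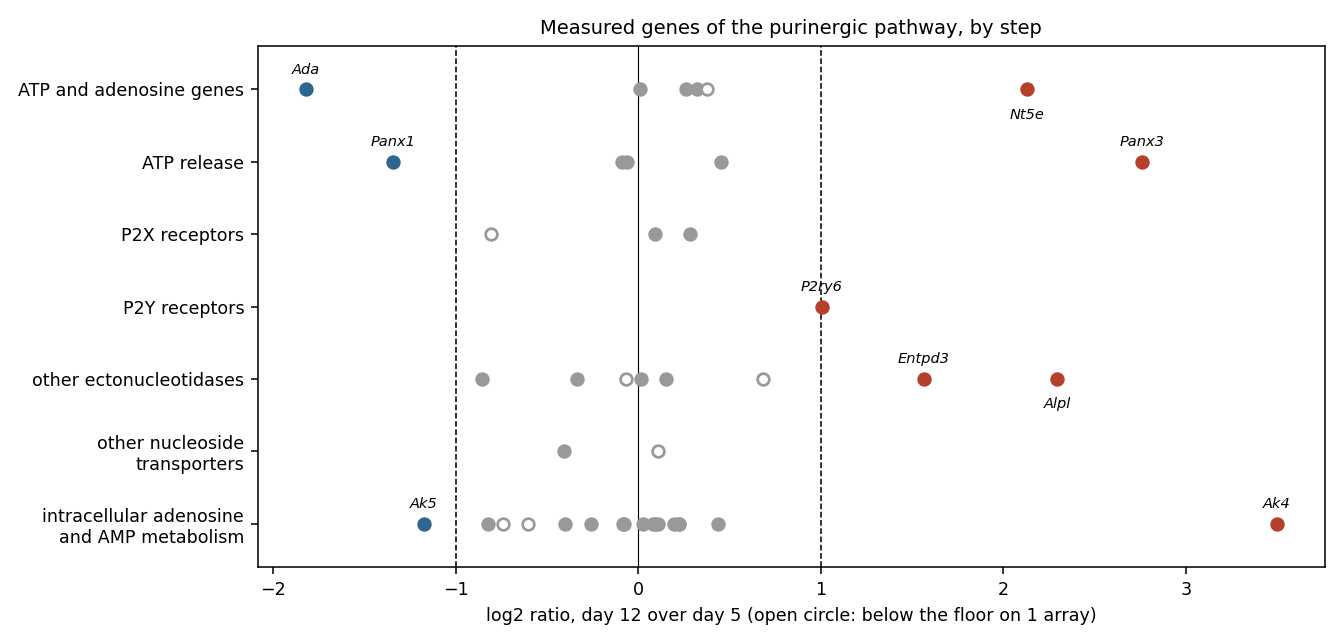
log2 ratio of day 12 over day 5 for each measured gene, by step of the pathway, 1 point per gene (brightest probe set), with dashed lines at 2-fold. Nt5e, Panx3, P2ry6, Entpd3, Alpl and Ak4 lie right of the upper line, and Ada, Panx1 and Ak5 lie left of the lower line.

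Markers of osteoblasts and of other cell types differed between the arrays as well. Osteoblast markers were present at both days, with signals of 1138 to 15530.3 at day 12 and 154 to 13389 at day 5 over 6 genes. Of the 6, 4 (Sp7, Alpl, Ibsp and Dmp1) were at least 2-fold higher at day 12. The other 4 of the 10 listed (Runx2, Bglap, Bglap2 and Spp1) had no probe set of their own and were not read. Of 14 myeloid markers 13 were measured and 10 were at least 2-fold higher (median log2 ratio 1.37). Their summed signal was 13324 at day 12 and 5405 at day 5, although Itgam, the gene of CD11b, was below the floor on both arrays, at 35.4 on day 12 and 14.6 on day 5. Entpd1 and P2ry6 are also expressed by macrophages, and the part of these cells in their ratios, and in that of Nt5e, was not tested.

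Chondrocyte markers were lower at day 12, as Ada was. All 10 were measured, 6 of them were lower by at least 2-fold and none was higher, with a median log2 ratio of -1.38 and a summed signal of 9902 at day 12 and 22871 at day 5. The part of these cells in the ratio of Ada was not tested. Of 8 endothelial markers only Esam was above the floor (48.8 at day 12 and 58.1 at day 5), and the 6 lymphocyte markers with a probe set had signals of 1.23 to 9.69 at day 12 and 0.95 to 6.38 at day 5, all below the floor.

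**Figure D4:**
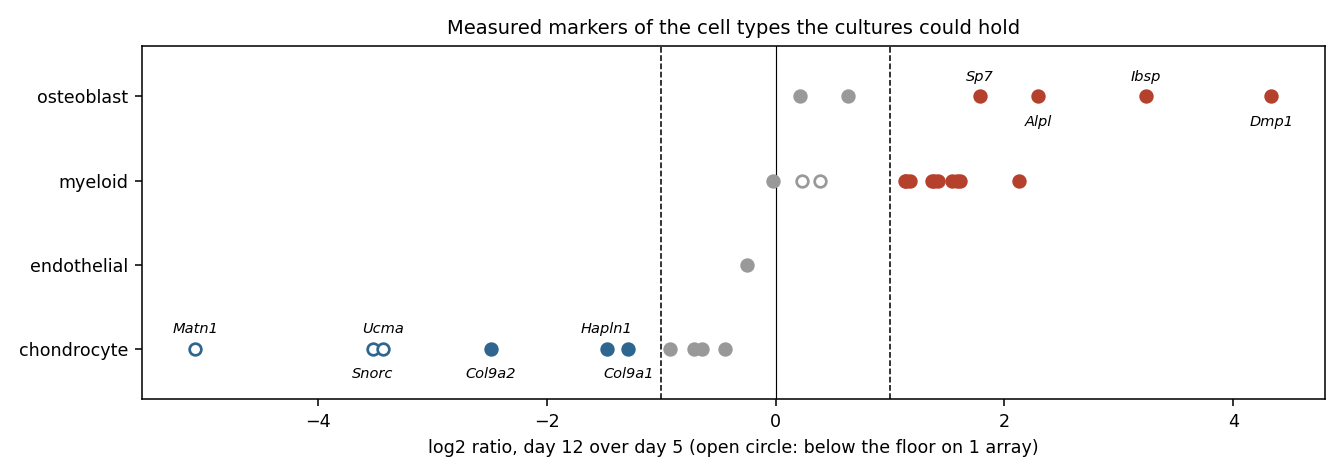
log2 ratio of day 12 over day 5 for each measured marker of 4 cell types, 1 point per gene, with dashed lines at 2-fold and open circles for genes below the floor on 1 array. Myeloid markers lie mostly to the right (median 1.37) and all chondrocyte markers to the left (median -1.38).

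Both leading ratios were compared across processing settings. Nt5e stayed at least 2-fold higher under all 8 alternatives, with log2 ratios from 1.15 (a lower bound) to 2.22. Ada stayed at least 2-fold lower under 7 of 8, the exception being the 75th percentile floor. Entpd2 and Slc29a1 were above 0 and within 2-fold under every alternative that measured them. Entpd1 was also above 0, with values of 0.14 to 0.83. Most of these are lower bounds because its day 5 signal was below the floor, and the bounds do not place it within 2-fold. The value of 0.83 came with the 50th percentile floor, where both signals of its brightest probe set were above the floor. For that probe set it is a ratio within 2-fold and not a bound.

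**Figure D5:**
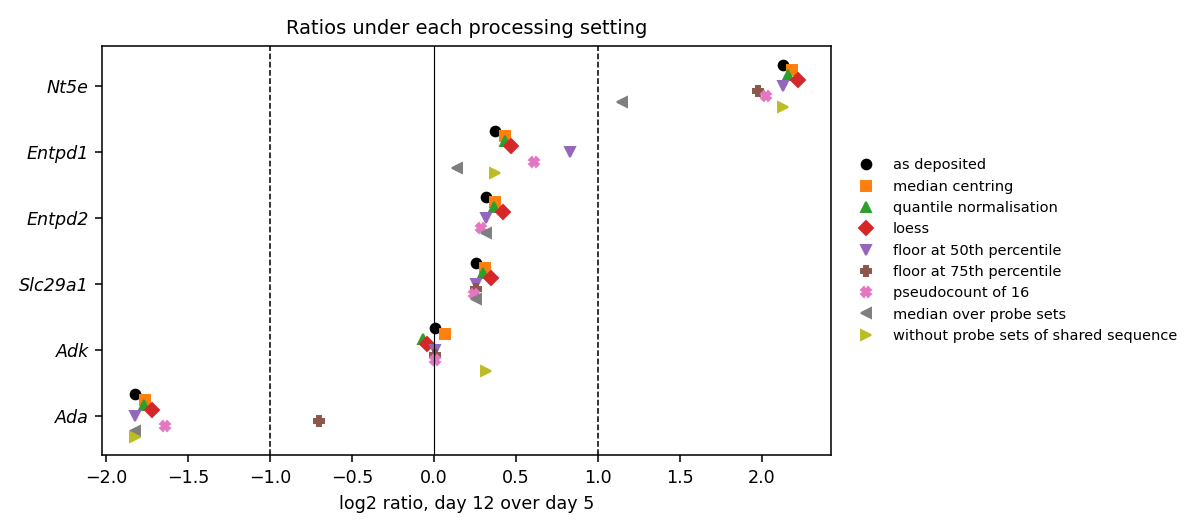
log2 ratio of day 12 over day 5 for the 6 measured members under the values as deposited (black) and each alternative setting, with dashed lines at 2-fold. The Ada value with the 75th percentile floor (-0.70) and the Nt5e value with the median over probe sets (1.15) stand apart from the others of those genes. Each of these values is a bound, as a signal behind it lay below the floor used.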

How the data were processed

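Total RNA (5 µg) from 1 sample at day 12 and 1 at day 5 was labelled as biotinylated cRNA and read on 1 array each, per the labels' protocols. The authors deposited linear signal intensity of 45101 probe sets, made with GCOS 1.4 and MAS5 per the submitters' processing notes. After 2% of probe sets were trimmed at each end, the mean was 200.0 on both arrays, so each was scaled to 1 target and a change in total RNA per cell cannot be seen. No detection call was used. Precision is limited by the number of arrays.

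Of the probe sets other than 64 controls, 34945 had 1 symbol in the platform annotation, 932 had several and 9160 had none. Symbols of 34741 were updated through the Entrez number in RefSeq (GRCm38.p6). Each gene took its probe set of highest mean log2 signal. Signals under the floor were replaced by the floor in log2 ratios of day 12 over day 5, so the fold of such genes is a bound. A gene was counted past 2-fold without a test, as there was 1 array per day. Alternatives were median centring, quantile normalisation, loess, a floor at the 50th or the 75th percentile, a pseudocount of 16 added instead, the median over probe sets, omission of probe sets with shared sequence (suffix s, x or a), and 1.5-fold or 3-fold as threshold. The genes named are all members, and of each pathway list those past 2-fold and up to 4 with the largest ratios, with others chosen after their values were seen. The members and lists were chosen with earlier results of these data known. The GC box and the lists of the closing section were added after the values were seen. The code was tested on simulated data. The code ran in Python 3.11.15 with pandas 2.3.3, numpy 2.4.6, statsmodels 0.14.6 and matplotlib 3.10.9.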

Additional observations from a re-analysis of the deposited data

How the results depend on the processing

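The log2 ratio of Ada lay between -1.82 and -1.64 under 7 of 8 alternatives, some of which could not change it. It was at most -0.70 with the floor at the 75th percentile, since its day 12 signal is below that floor of 175. The number of members past 2-fold was 1 with that floor, with 4 members measured, and stayed at 2 under the others, thresholds of 1.5-fold and 3-fold included. The 7 pathway genes past 2-fold became 3 with the 75th percentile floor, 13 at 1.5-fold and 3 at 3-fold, and numbered 5 to 8 otherwise. Over all genes, 223 were higher and 74 lower with the 75th percentile floor and 510 and 297 with the 50th, against 373 and 181 as reported. At 1.5-fold 1567 genes passed in either direction, and at 3-fold 211, against 554. No scaling moved the median of all genes by over 0.1. No paired analysis was possible because there was 1 array per day. Genes near the floor, such as Entpd1 and P2rx7, are limited by signal over background.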

Other observations

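Values follow for 2 further gene groups next to this pathway, both chosen after the values of the members were seen. Of 12 measured genes of purine nucleotide synthesis, none was past 2-fold, with log2 ratios from -0.34 to 0.77 and a median of -0.03. The highest was Impdh1, which commits IMP to guanine nucleotides, reading 320.4 at day 12 and 188 at day 5. Paics and Atic, enzymes of the route to IMP, had log2 ratios of -0.07 and 0.01. Of 26 measured genes of the cAMP pathway, through which adenosine receptors signal, none was past 2-fold, with a median of 0.03. Gnai1, an inhibitory G protein subunit, had signals of 2523 (day 12) and 1449 (day 5), log2 ratio 0.80, and the adenylyl cyclase gene Adcy7 had 269 at day 12 and 425 at day 5 (log2 ratio -0.66). Gnas, the stimulatory subunit, had a log2 ratio of 0.10. Of all measured genes 5.29% passed 2-fold, so a count of 0 in lists of this size is near that share and says nothing particular about them.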
